A study of Glycine max with 5 samples.

Results

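The GCΨCT motif, in which a pseudouridine (Ψ) is preceded by GC and followed by CT, held 235 of the 1347 Ψ sites listed for soybean shoots, or 17.4% (Wilson 95% interval 15.5 to 19.6%). Members were assigned by a sequence rule, from the base at each of the 4 positions around the Ψ in the 21-nt window given for each site. T is written for U, as in the list. Of the other 1112 sites, 276 also had a C on both sides of the Ψ (CΨC sites outside the motif), and these served as the closest comparison.

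The RNA was poly(A)-enriched RNA from shoots of week-old plants of the genotype W82, the Williams 82 cultivar. Bisulfite-induced deletion sequencing (BID-seq) was run on 3 bisulfite-treated libraries, and 2 untreated input libraries were made beside them. All libraries are of this one genotype and tissue, so no contrast between conditions exists. The list gives 1 combined value per site, with no value per library, and the spread between replicates could not be obtained.

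Ψ is an isomer of uridine that pseudouridine synthases make within finished RNA chains. Some of these enzymes are led to their targets by guide RNAs, and others read a short motif or a fold on their own, as TRUB1 and PUS7 do in human cells. Bisulfite adds to Ψ, and reverse transcriptase tends to skip the adduct, so that a Ψ shows as a missing base, or gap, in the reads. The gap ratio is the percentage of reads at a site that carry the gap, and the Ψ fraction is the stoichiometry that the authors computed from it with a calibration curve. By the rule no member had a U on either side of the Ψ, so a gap there could be assigned to a single base. The same holds for the other CΨC sites. Of the 1112 other sites, 86 lay in a run of at least 4 U, and shorter runs were not counted.

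Windows that the results below turn on are printed 5′ to 3′ with the motif in capitals, where the middle T of GCTCT is the Ψ. Coordinates are those of the list on Glycine_max_v2.1, and lie on the strand named. The first 5 windows are the members with the most reads.
chr10:47970070-47970090, plus strand: tcggcgggGCTCTcctgtgcg
chr10:47970398-47970418, plus strand: ccaactggGCTCTggtttcga
chr20:38056258-38056278, minus strand: ccaattggGCTCTggtttcga
chr19:781155-781175, plus strand: tcttttgaGCTCTggggcctt
chr5:687480-687500, plus strand: tcttttgaGCTCTggggcctt

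The next 5 windows had the highest Ψ fractions, and the 3 after them the lowest. The first of them is a near copy of the chr10:47970398-47970418 and chr20:38056258-38056278 windows above.
chr3:8043482-8043502, plus strand: ccaacttgGCTCTggtttcga
chr1:32703640-32703660, minus strand: agttagtgGCTCTggccttgg
chr13:22497638-22497658, plus strand: agctgaggGCTCTgcccgccc
chr18:50214393-50214413, plus strand: gcgaaggaGCTCTtgttggac
chr13:31510347-31510367, minus strand: attttcagGCTCTggctgagc
chr12:1807307-1807327, plus strand: ttccgcgcGCTCTgcaccggc
chr8:36281611-36281631, minus strand: tgtcccagGCTCTgagtgaga
chr9:37787431-37787451, minus strand: agactggaGCTCTgcttcttg

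GCΨCT was the most frequent of the 158 different 5-nt contexts in the list, and the next, GTΨGT, had 104 sites. It made up 46.0% of the 511 CΨC sites (41.7 to 50.3%). The 12 contexts that differ from it at 1 base held 251 sites in all. Changes of the last base, the second after the Ψ, accounted for 117 of them, with 87 GCΨCG, 30 GCΨCC and no GCΨCA site. Changes of the first base gave 90 sites, with 40 TCΨCT, 37 CCΨCT and 13 ACΨCT. Changes of the C before the Ψ gave 35 sites, of which 27 were GTΨCT, and changes of the C after it gave 9. Most listed sites 1 base away from the motif thus kept both C. How often each context occurs in soybean transcripts was not analysed here, so these counts are not rates of modification.

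Read from the outside in, a G before CΨCT was present at 235 of 325 sites, or 72.3% (67.2 to 76.9%). A T after GCΨC was present at 235 of 352 sites, or 66.8% (61.7 to 71.5%). An A in that place was present at 0 of 352, and a count of 0 leaves room for a share of at most 0.852% when read as 3 counts, or 1.08% by the Wilson upper limit. A was rare in that place in the other CΨC sites too, with 1 ACΨCA and 1 TCΨCA site.

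The bases next to the motif, which the choice did not use, were uneven. Among members the base directly after the motif (position +3 from the Ψ) was G at 192 of 235 sites, or 81.7%, C at 35 and T at 8. A was never found there, and a count of 0 in 235 sites leaves room for a share of at most 1.28% when read as 3 counts, or 1.61% by the Wilson upper limit. On the other side, at position −3, G was present at 116 sites (49.4%), A at 70 (29.8%), T at 32 (13.6%) and C at 17 (7.23%). The most frequent 7-nt contexts were gGCΨCTg with 91 sites (38.7%, 32.7 to 45.1%) and aGCΨCTg with 62 (26.4%, 21.2 to 32.4%), followed by tGCΨCTg with 26, gGCΨCTc with 22 and cGCΨCTg with 13.

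Against the 276 other CΨC sites, 5 of the 64 combinations of position and base outside the motif differed (7.81%), by a Newcombe interval widened for 64 comparisons. The largest of these was the G at −3, which was present at 49.4% of members and 20.7% of other CΨC sites, a difference of 28.7 points (14.6 to 41.5). C and T at −3 were less frequent in members, at 7.23% against 26.4% and at 13.6% against 27.9%. The lack of A at +3 (0 of 235 against 21 of 276, 7.61%) and the lower share of C at +5 (17.9% against 35.1%) made up the rest. All 5 also differed within classes of read depth. With 1 site per identical window 4 of them did, and T at −3 then differed by −12.0 points with an interval that includes 0 (−24.0 to 0.750).

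G at +3 was also frequent in the other CΨC sites, at 71.4%, and its difference of 10.3 points did not pass (−2.47 to 22.4). Against all 1112 other sites 11 combinations differed (17.2%), 5 higher and 6 lower, and G at +3 was then the largest with 81.7% of members against 37.1% of other sites. The others in that comparison included A at +3 (0 of 235 against 322 of 1112, 29.0%), T at +4 (3.83% against 15.9%) and A at −3 (29.8% against 17.7%). Within depth classes 8 of the 11 still differed, and G at −3, +8 and +9 did not. In all 10 combinations differed within depth classes. Those added there were G at +5 (−10.2 points, −20.2 to −0.237) and T at +5 (12.5 points, 1.49 to 23.5). The GC content of the flanks was 52.0% ± 11.1 (SD over 235 sites), close to the 52.9% of other CΨC sites and the 49.2% of all others.

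**Figure D1:**
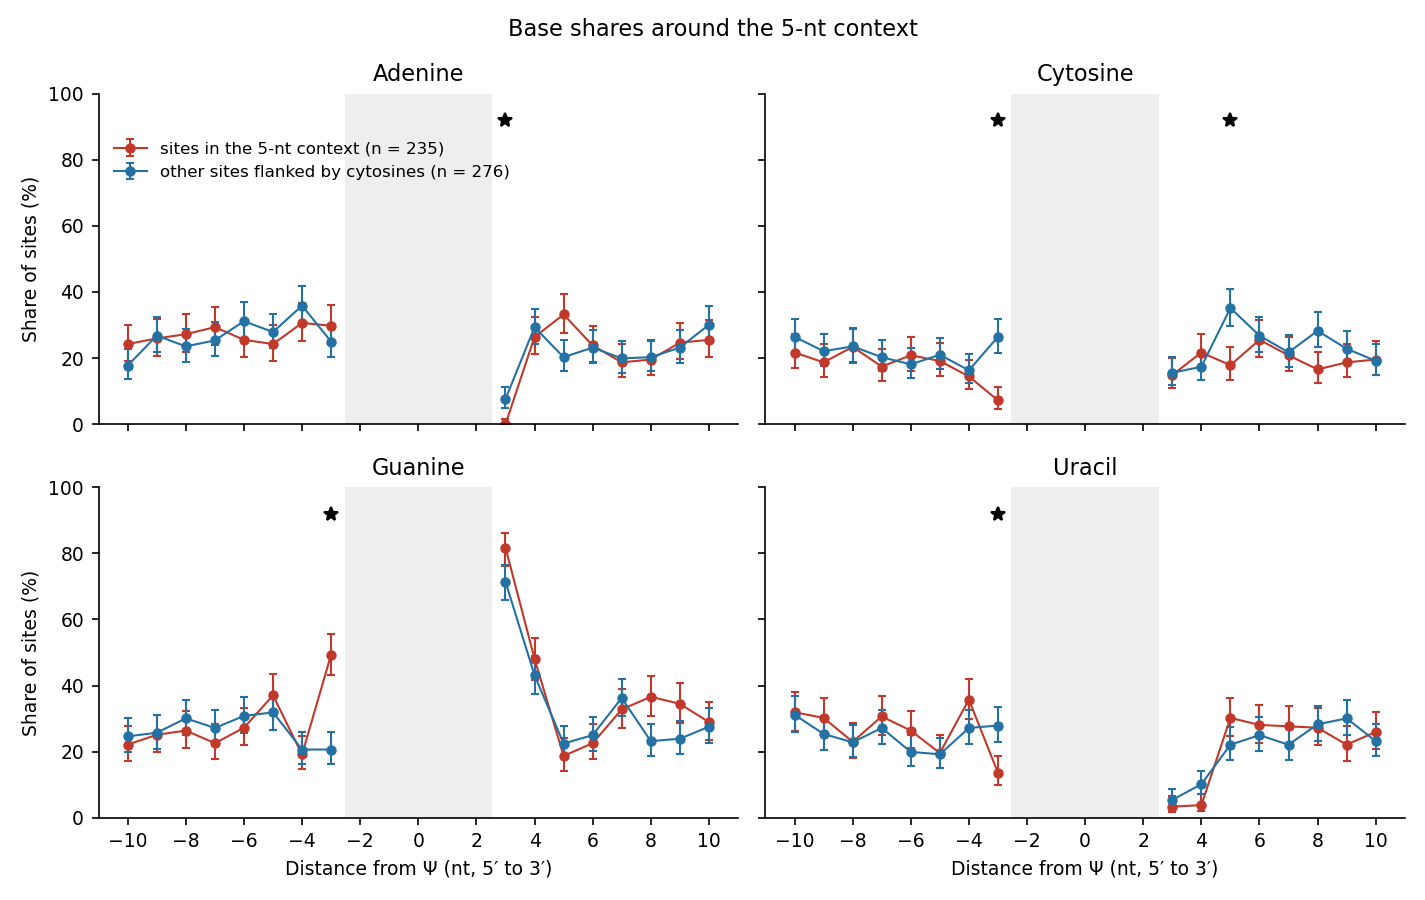
Share of sites (%, vertical axis) with each nucleobase at each distance from the Ψ (nt, horizontal axis), for the 235 sites in the motif and the 276 other CΨC sites. Points are shares, bars are Wilson 95% intervals, the shaded band is the motif itself and stars mark the 5 combinations whose widened interval excludes 0. Guanine at −3 stands at 49.4% against 20.7%, and adenine at +3 is at 0 in the motif.

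The median member was covered by 649 reads (95% interval from order statistics, 555 to 780). The quartiles were 316 and 1260 and the extremes 24 and 9626. Summed over the motif, this made 250804 reads, 12820 of them gapped. The number of gapped reads per member had a median of 37 and was nowhere below 6. The other CΨC sites had a median of 592 reads (482 to 698), an interval that overlaps that of the members. All other sites together had a median of 362.5 reads (325 to 408).

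Shallow sites were rare in the motif. At most 50 reads covered 2 members (0.851%, 0.234 to 3.05%), against 13 of 276 other CΨC sites (4.71%) and 213 of 1112 other sites (19.2%). At the other end, 84 members (35.7%, 29.9 to 42.1%) had over 1000 reads, against 26.3% of all other sites and 32.2% of other CΨC sites (27.0 to 38.0%), whose interval overlaps that of the members. The 2 shallowest members were at chr18:50214403 with 24 reads, 6 of them gapped, and at chr14:2496900 with 43 reads, 8 of them gapped.

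The gap ratio of members ran from 3.01 to 29.5% with a median of 5.76% (5.33 to 6.33%). The Ψ fraction ran from 8.82 to 63.3% with a median of 17.7% (16.4 to 19.4%) and a mean of 20.4% ± 9.41 (SD over 235 sites). The upper quartile of the fraction was 23.4%, so the high values belonged to few members. Medians of the gap ratio were 6.30% for the other CΨC sites and 7.09% for all other sites, and medians of the Ψ fraction were 23.3% and 26.6%. These raw differences cannot be read alone, because in the list the gap ratio fell with depth. Spearman's rho between reads and gap ratio was −0.85 over the 235 members, −0.83 over the other CΨC sites and −0.93 over all other sites, as a description across sites that share libraries and a filter set by the authors.

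**Figure D2:**
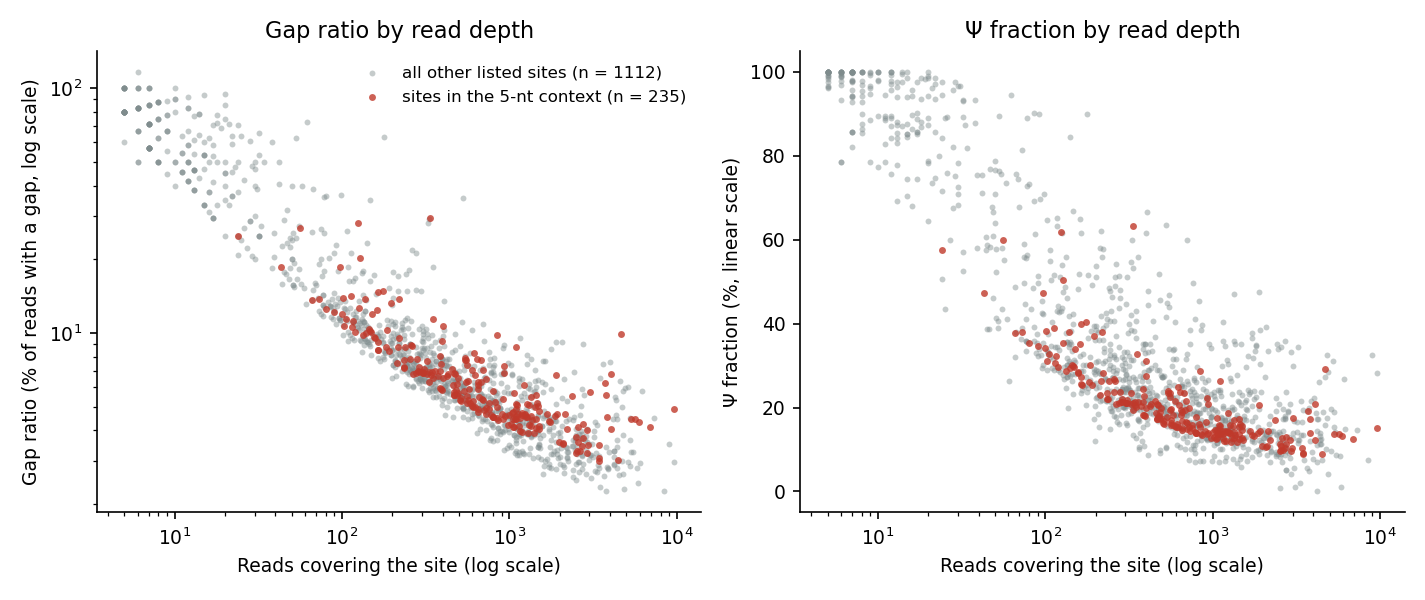
Gap ratio (%, log scale, left) and Ψ fraction (%, linear scale, right) against the reads covering each site (log scale), 1 point per site, for the 235 members and the 1112 other sites. Both measures fall with depth, members lie within the same band as the other sites, and they are rare at the shallow end.

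To compare sites of like depth, they were put in 6 classes of read count, bounded at 20, 50, 200, 500 and 1000 reads, and differences within classes were averaged with the members' numbers as weights. Above 50 reads, the members' median gap ratio was 11.7% (36 sites), 6.93% (55 sites), 5.32% (58 sites) and 4.44% (84 sites) in successive classes. Their median Ψ fraction was 33.4%, 21.2%, 16.4% and 13.6%. Both measures therefore fell from class to class within this single motif. The lowest listed gap ratio of members fell as well, at 8.42%, 5.57%, 4.19% and 3.01% in these classes. Only sites that passed the authors' filter are listed, and how much of the fall came from that filter was not tested.

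At matched depth the gap ratio of members differed from that of other sites by −0.352 points (95% interval −0.772 to 0.068), an interval that includes 0, where the unmatched means differed by −10.2 points. Without the single member with the highest Ψ fraction, at chr3:8043492, the difference was −0.445 points (−0.823 to −0.0667), an interval that excludes 0. Restricted to sites with at least 200 reads, the sign turned, with 0.0655 points (−0.262 to 0.393), and so it did for medians in place of means, with 0.0782 points. Among sites with over 1000 reads, members were higher by 0.370 points (0.0911 to 0.648), with medians of 4.44% against 3.86%, although in this class members had fewer reads (median 1504.5 against 1815). In the same class they did not differ from other CΨC sites beyond the interval (−0.228 points, −0.600 to 0.143).

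Against other CΨC sites the matched difference over all classes was −0.0843 points (−0.550 to 0.381). With deciles of depth in place of the classes, a setting added after seeing the data, it was −1.33 points (−2.27 to −0.401), so the call depends on the strata. The lowest decile, from 5 to 142 reads, differed by −11.9 points, and there the 22 members had a median of 104 reads and the 30 other CΨC sites 62.5. In the 9 deciles above it the difference ran from −1.38 to 0.249 points.

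The Ψ fraction did differ at matched depth. It was lower in members than in all other sites, with a difference of −4.63 points (−5.61 to −3.64), and lower than in other CΨC sites, with a difference of −4.70 points (−5.87 to −3.54). The difference was on the same side in each of the 4 classes above 50 reads in both comparisons, and against all other sites it ran from −7.77 points in the class up to 200 reads to −2.94 points above 1000 reads. The gap ratio against other CΨC sites, by contrast, differed or not according to the depth strata.

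**Figure D3:**
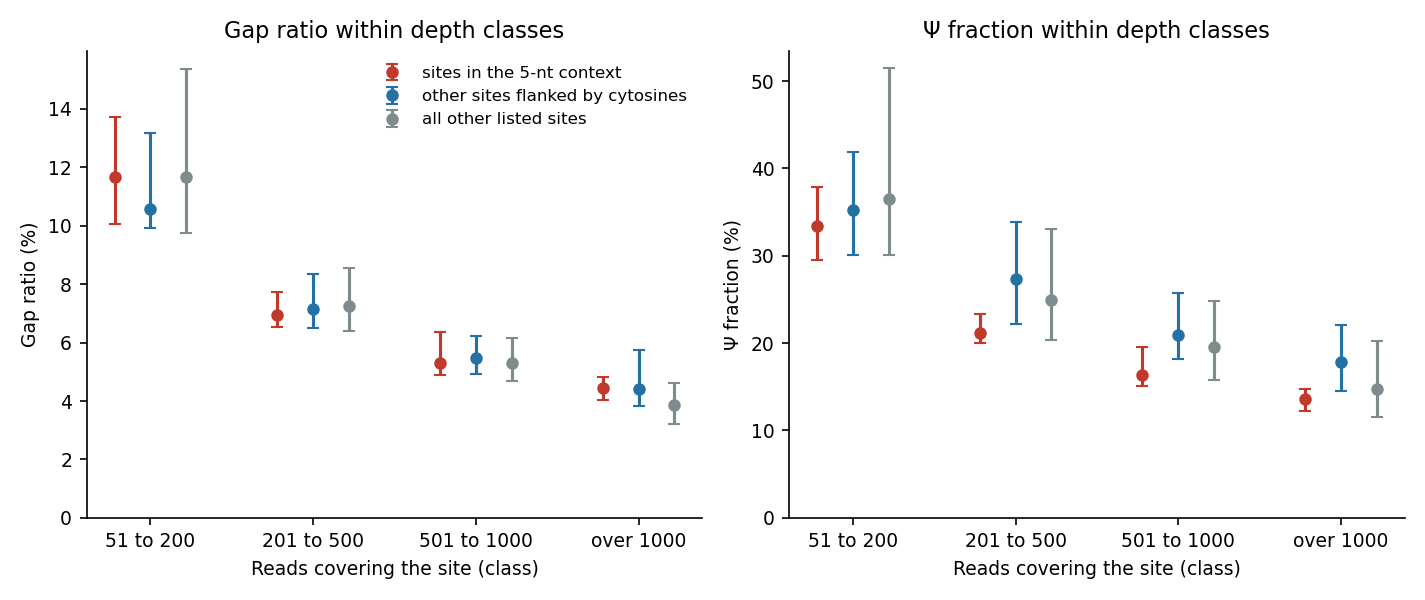
Median gap ratio (%, left) and median Ψ fraction (%, right) in the 4 depth classes above 50 reads, with bars for the interquartile range over sites, for members, other CΨC sites and all other sites. Gap ratios lie close together in each class, and the members' Ψ fraction is the lowest of the 3 groups, at 13.6% above 1000 reads.

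The Ψ fraction was under 20% in 139 members (59.1%, 52.8 to 65.2%), between 20 and 50% in 91, and over 50% in 5 (2.13%, 0.912 to 4.88%). Among all other sites 33.6% were under 20% and 24.6% over 50%. At matched depth the share under 20% was still higher in members, by 13.8 points (8.78 to 18.8), and the share over 50% was lower (difference −4.56 points, −6.81 to −2.31). Against other CΨC sites the first difference was 21.7 points (15.2 to 28.2) and the second was −1.13 points (−3.89 to 1.63), which includes 0. The shares rest on depth as well, since among the 197 members with at least 200 reads, 70.6% were under 20% and 0.508%, a single site, over 50%.

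The way the Ψ fraction was made bears directly on this comparison. Within the motif the listed fraction followed the listed gap ratio in strict order, with 0 reversals over 235 sites, and reading each member's fraction from its neighbours in gap ratio missed by at most 0.226 points. Fraction and gap ratio are therefore a single measurement inside the motif. The fraction was 2.15 to 3.08 times the gap ratio. Over all 235 members the gap ratio was known to within a median of 1.83 points (from its Wilson interval). The fraction was known to within a median of 5.59 points over the 213 members whose interval lay inside the motif's range.

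Other contexts were converted differently. A gap ratio of 5% stood for a Ψ fraction of 15.4% in GCΨCT and of 24.8% in GCΨCG, which differs by the last base only. At 10% the fractions were 29.4% and 41.6%. ACΨCT (21.3% at a gap ratio of 5%), TCΨCT (18.2%) and TCΨCC (16.6%) also lay above the motif, GCΨCC (15.3%) lay close to it, and CCΨCC (14.2%) and CCΨCT (13.3%) lay below. At matched depth the gap ratios of members and GCΨCG sites differed by 0.183 points (−0.357 to 0.723), while their median fractions were 17.7% and 28.9%. Of 8 contexts compared in this way, TCΨCT alone had an interval of the gap ratio difference that excluded 0, with members higher by 0.995 points (0.586 to 1.40), and no allowance was made for the number of contexts.

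**Figure D4:**
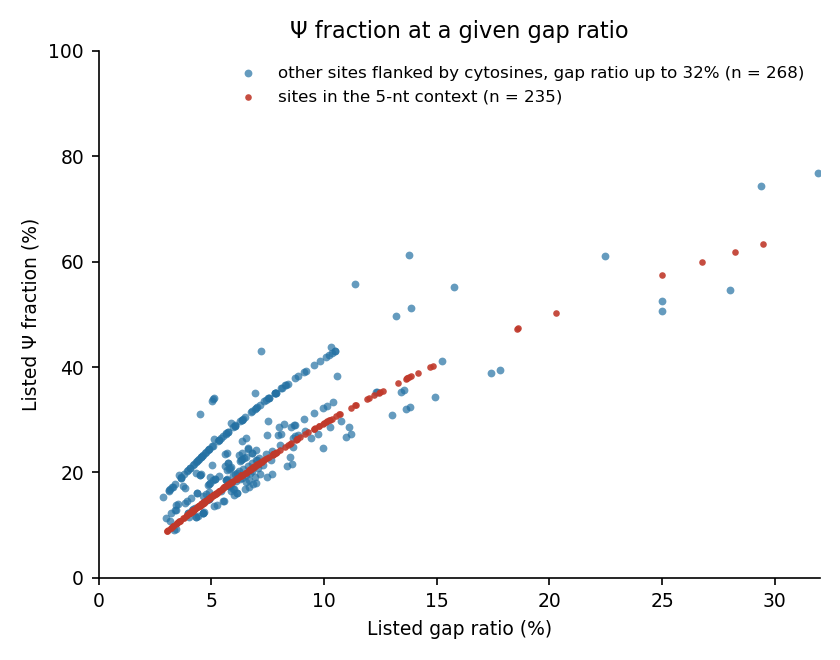
Listed Ψ fraction (%) against listed gap ratio (%), 1 point per site, for the 235 members and for the 268 other CΨC sites with a gap ratio up to 32% (8 lie beyond the axis). Members fall on a single curve that reaches 63.3% at 29.5%, while other CΨC sites spread over several curves, above and below it.

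Inside the motif, the bases next to it went with no clear difference in level. Median gap ratios were 5.76% for gGCΨCTg, 6.02% for aGCΨCTg, 5.77% for tGCΨCTg, 5.92% for gGCΨCTc and 4.62% for cGCΨCTg, whose 13 sites were also the deepest of these with a median of 1148 reads. At matched depth, members with C at +3 differed from the other members by −0.441 points (−1.15 to 0.265) and those with G there by 0.532 points (−0.0418 to 1.11). Of the 15 base and position groups at −4, −3, +3 and +4, T at −3 alone had an interval without 0 (−0.489 points, −0.970 to −0.00842), with no allowance for the 15 comparisons.

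Single members stood apart from the level of their depth class, as did other sites. In the 4 classes above 50 reads, the Wilson interval of 3, 4, 8 and 9 members lay wholly above the pooled gap ratio of the members in that class, and that of 0, 0, 1 and 15 members lay wholly below it. Measured in the same way against their own pooled ratios, 20 of 169, 18 of 258, 17 of 179 and 61 of 293 of all other sites lay above, and 11, 9, 14 and 69 below, so such sites are not particular to the motif. How much of this followed depth within a class was not tested.

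The 5 highest Ψ fractions were the only ones over 50%. At chr3:8043492, 99 of 336 reads were gapped (29.5%, 24.8 to 34.5%), a fraction of 63.3%. At chr1:32703650, 35 of 124 reads were gapped, a fraction of 61.7%. The other 3 had 15 of 56 reads (59.9%, chr13:22497648), 6 of 24 reads (57.4%, chr18:50214403) and 26 of 128 reads (50.3%, chr13:31510357). Only the first of the 5 had at least 200 reads, so the level of the rest is known less closely.

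Next among members with at least 200 reads came chr1:1516902 (30 of 219 reads, fraction 37.9%), chr20:34530518 (40 of 351, 32.7%), chr3:41076306 (43 of 401, 31.1%) and chr20:38038291 (464 of 4670, 29.2%). The last of these was by far the deepest, with a gap ratio of 9.94% (9.11 to 10.8%), more than 2 times the class median of 4.44%. The 5 members with the most reads had gap ratios of 4.89% (chr10:47970080, 471 of 9626 reads), 4.12% (chr10:47970408, 284 of 6889), 4.34% (chr20:38056268, 257 of 5920), 4.45% (chr19:781165, 252 of 5661) and 4.44% (chr5:687490, 236 of 5318). These deep sites lay within 0.77 points of each other. The lowest Ψ fractions were 8.82% at chr12:1807317 (104 of 3453 reads), 8.85% at chr8:36281621 (135 of 4471) and 9.12% at chr9:37787441 (107 of 3454).

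Members were found on all 20 chromosomes, from 8 sites on chromosomes 1, 3 and 14 to 19 on chromosome 7, and 1 lay on a scaffold. They made up 13.4% (chromosome 8) to 25.4% (chromosome 9) of the listed sites of a chromosome. The Wilson interval of 0 of 20 chromosomes excluded the overall 17.4%. On the plus strand lay 127 members (54.0%, 47.7 to 60.3%) and 531 of 1112 other sites (47.8%).

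Soybean descends from a polyploid ancestor, and its genome keeps many genes in paired copies. The 235 members had 213 different windows, of which 193 were listed once, 19 at 2 positions and 1 at 4. A copy, defined as another listed window with at most 3 mismatches over the 21 nt, was found for 68 members (28.9%, 23.5 to 35.0%), against 20.6% of all other sites and 28.3% of other CΨC sites. At matched depth the difference from all other sites was 4.27 points (−2.15 to 10.7), so members did not differ beyond the interval. Identical copies were found for 42 members (17.9%), against 18.5% of other CΨC sites and 13.4% of all other sites.

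All listed copies of members, at up to 3 mismatches, were members too. The 68 members formed 47 pairs, 25 identical and 14, 5 and 3 with 1, 2 and 3 mismatches, and 0 pairs at up to 3 mismatches joined a member to a site outside the motif. At 4 mismatches there were 2 such pairs and at 5 there were 11. Copies of other sites mostly kept their centre too. In the 62 pairs of other sites with 1 to 3 mismatches, 2 mismatches lay in the centre of the window and 101 in the flanks. Keeping the centre was thus not particular to the motif. Only listed sites enter these counts, so a copy that had lost the motif and was not listed cannot be seen. The pairs joined 30 different combinations of chromosomes, most often 7 with 13 (5 pairs), and 3 pairs lay on a single chromosome.

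The gap ratios of identical windows were close. The larger gap ratio of a pair exceeded the smaller by a median of 1.12-fold, at most 1.80-fold, and the read counts by a median of 1.16-fold, at most 6.72-fold. The 25 pairs come from 19 windows listed at 2 positions and 1 listed at 4. The last enters as every combination of its positions, and these pairs are not independent. By Fisher's exact test of gapped and ungapped reads, two-sided and adjusted by Benjamini and Hochberg over the 107 identical pairs of the whole list, 0 of the 25 member pairs differed, as did 0 of the 107 (0%), while 3 of the 25 had an unadjusted p under 0.05. How reads that fit both copies were assigned is not given in the sources used here, so identical windows may share reads and their closeness cannot be told apart from that.

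The identical pair with the most reads was chr19:781165 and chr5:687490, with 252 of 5661 and 236 of 5318 reads gapped, or 4.45% and 4.44%. The window agactggaGCTCTgcttcttg lay at chr16:36618587 (165 of 4071 reads, 4.05%) and chr9:37787441 (107 of 3454, 3.10%). The window ccaaaattGCTCTgccactct lay at chr15:16895310 (103 of 2964, 3.47%) and chr9:7093091 (117 of 2915, 4.01%), and ttgttcaaGCTCTtgtcacag at chr14:318819 (102 of 2735, 3.73%) and chr2:48295802 (93 of 2700, 3.44%). Within each of these pairs the Wilson intervals overlapped.

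The window listed at 4 positions is shown because it gives the most repeats of a single sequence.
chr13:38164989-38165009, plus strand: tacagggaGCTCTggatgggg
chr13:38168983-38169003, minus strand: tacagggaGCTCTggatgggg
chr7:5336295-5336315, minus strand: tacagggaGCTCTggatgggg
chr7:5343510-5343530, minus strand: tacagggaGCTCTggatgggg
The positions on chromosome 13 were 3994 nt apart and those on chromosome 7 were 7215 nt apart. The gapped reads were 48 of 1082, 56 of 1092, 55 of 1194 and 55 of 1311 in the order given. The gap ratios of 4.44, 5.13, 4.61 and 4.20% lay within each other's intervals.

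Over all 47 pairs with up to 3 mismatches, 7 differed at an adjusted p under 0.05 (14.9%), by Fisher's exact test adjusted over the 191 such pairs of the list, of which 28 differed (14.7%). The share of differing pairs among members was therefore near that of the whole list. All 7 lay in 2 groups of windows, described next. Without chr3:8043492 there were 5 in 45 pairs, without chr20:38037607 there were 3 in 43, and without either 1 in 41.

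In the first group, chr10:47970408, chr20:38056268 and chr3:8043492 share all but 1 or 2 of their 21 bases. Counted from 1 at the 5′ end of the window, with the base of the first named window first, the chromosome 10 and 3 windows differ by G7T, and the chromosome 10 and 20 windows by C5T. Gap ratios were 4.12% on chromosome 10 and 4.34% on chromosome 20, from 6889 and 5920 reads, but 29.5% on chromosome 3 from 336 reads. The chromosome 3 copy was thus 7.15-fold and 6.79-fold higher than its copies, with adjusted p of 1.50e-47 and 1.75e-45 by Fisher's exact test. The deep pair did not differ (adjusted p = 0.911, Fisher's exact test). Reads covering the chromosome 3 copy were 20.5-fold fewer than those at the chromosome 10 copy, and whether part of its gapped reads came from the other copies was not tested.

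The second group holds 5 windows with at most 3 mismatches to each other, shown because a single base outside the motif separates the lowest from the highest gap ratio.
chr20:38037597-38037617, plus strand: ggtggaaaGCTCTgacaccat
chr20:38038281-38038301, plus strand: ggtggagaGCTCTgacaccat
chr7:36855850-36855870, plus strand: ggtggagaGCTCTgacaccat
chr13:23082954-23082974, minus strand: ggtggaaaGCTCTgataccat
chr17:3125203-3125223, plus strand: ggtggaaaGCTCTgatactat
The gapped reads were 95 of 2517 at the first site, 464 of 4670 at the second, 49 of 695 on chromosome 7, 27 of 386 on chromosome 13 and 47 of 725 on chromosome 17. The gap ratios were 3.77%, 9.94%, 7.05%, 6.99% and 6.48% in this order, so the first site was the lowest and the second the highest. These lay 684 nt apart on chromosome 20 and differ by A7G. Their gap ratios differed 2.63-fold (adjusted p = 8.85e-21, Fisher's exact test). The first site was also lower than each of the other 3 (adjusted p from 0.00431 to 0.0413, Fisher's exact test). These 3 tests cannot separate a difference in level from the authors' filter, because the 3 copies had fewer reads. In their depth classes the lowest listed gap ratio of members was 5.57% (up to 500 reads) and 4.19% (up to 1000 reads). Both lie above the 3.77% of the first site. The second site was higher than the site on chromosome 17 (adjusted p = 0.0204, Fisher's exact test) but did not differ from the site on chromosome 13 (adjusted p = 0.246, Fisher's exact test). The identical windows on chromosomes 20 and 7, at 9.94% and 7.05%, did not differ after adjustment (adjusted p = 0.0893, Fisher's exact test). All of these p-values cover counting error within the combined reads only, since amplified reads are not independent molecules and libraries were not separate.

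**Figure D5:**
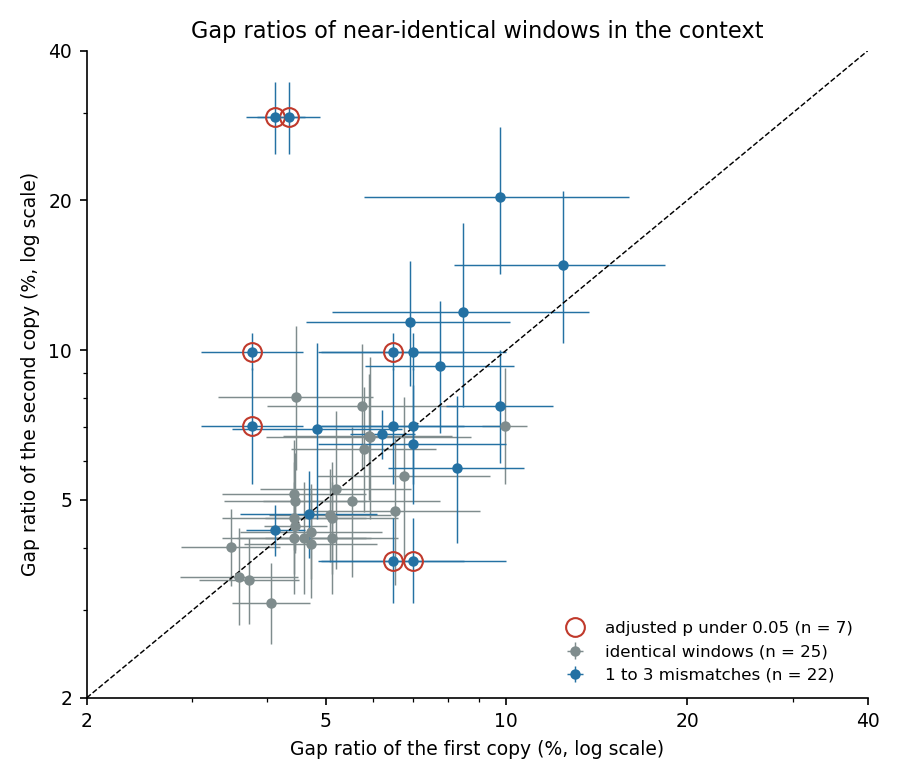
Gap ratio of the second copy against that of the first (%, both axes on a log scale) for the 47 pairs of members with up to 3 mismatches, with Wilson 95% intervals as bars and equality as a dashed line. The 25 identical pairs lie near the line, and the 7 circled pairs with an adjusted p under 0.05 include the pair at 4.12% and 29.5%.

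The copy of chr13:31510357, one of the 5 members with the highest Ψ fractions, did not differ from it by the test. At chr12:39484509, 13 of 133 reads were gapped (9.77%), and at chr13:31510357, whose window differs by T6C, 26 of 128 were (20.3%), with an adjusted p of 0.127 by Fisher's exact test.

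Few members lay near another listed site. Within 100 nt on the same strand another site was listed for 6 members (2.55%, 1.18 to 5.46%) and for 40 of 1112 other sites (3.60%). Within 1000 nt the numbers were 26 (11.1%) and 112 (10.1%). At both distances the Wilson intervals of members and other sites overlapped. Within 1000 nt there were 5 links between members, at distances of 283, 327, 328, 447 and 684 nt. The closest neighbour of all was the CCΨCT site 7 nt from chr11:8389826, with 38 of 619 gapped reads (6.14%) beside 5.16% at the member.

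The motif also occurred inside windows away from the centre. In the windows of the list there were 18 such occurrences of GCTCT, and its first U was itself listed as a site in 1 of them. In 5 cases the listed Ψ was the second U of GCTCT, with 285 to 2380 reads and gap ratios of 3.45 to 7.02%, and the first U was listed in none of the 5. Conversely, the second U of the motif was listed in 0 of 235 members. These windows surround listed sites only and are not a sample of the transcriptome.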

How the data were processed

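Poly(A) RNA from W82 soybean shoots was sequenced after BID-seq in 3 treated and 2 input libraries. Per the study's methods, the authors summed gapped and ungapped reads over replicates. The deposited read count is the unnormalized number of reads covering a site. The deposited gap ratio is gapped over total reads, and the deposited Ψ fraction is that ratio after the authors' calibration. Sites were filtered by the authors with a p-value based method on Glycine_max_v2.1. The aligner, the thresholds and the handling of reads with several matches are not given in the sources used here. Which libraries the read counts cover is not stated. Gapped reads were recovered as ratio times reads, whole within 0.01 at 100% of sites, and the ratio exceeded 100% at 1 site outside the motif.

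Samples were grouped by their labels, but with 1 combined list no test over samples was made. Sites are not replicates, so comparisons of members with other sites carry 95% intervals and no p-value (Wilson, Newcombe widened over 64 comparisons, order statistics for medians, and stratified means over 6 depth classes). Wilson intervals of a gap ratio cover counting error of reads only. Intervals of shares, medians and matched means rest on the number or spread of sites, taken as independent. Copies were compared by Fisher's exact test with Benjamini-Hochberg adjustment over all pairs of the list, and extending this to windows with up to 3 mismatches was chosen after seeing the data. Depth matching was tested on simulated data (50 draws of the 1347 sites). A shift of 5 points was recovered as 4.95 within strata and a shift of 0 as −0.0401. Without strata the shift of 0 came out as −5.46 points, whereas the listed gap ratios of members and all other sites differed by −10.2 points. Depth matching under a fall with depth as steep as the listed one was not tested. Alternatives were other depth strata, a spline, medians, other comparison sites, read minimums of 50 and 200, single windows and other mismatch limits.

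The members, the contexts compared and the depth classes were chosen with earlier results of these data known. Sites named were the 5 highest Ψ fractions, the 5 highest with at least 200 reads, the 5 with the most reads, the 3 lowest fractions and the 5 identical pairs with the most reads. Other named copies and neighbours were chosen after their values were seen. The 2 per-sample columns of the expression table were left out, because each name fits both an input and a treated library and the gene models are of another assembly. Sites were not joined to genes, exons or untranslated regions for the same reason. Software was Python 3.11.15, numpy 2.4.6, pandas 2.3.3, scipy 1.17.1, statsmodels 0.14.6 and matplotlib 3.10.9.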

Additional observations from a re-analysis of the deposited data

How the results depend on the processing

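No paired analysis was possible because values of single libraries are lacking and only their combination was used. Leaving out a replicate and the position of sites in codons were not run, the latter for want of protein sequences. For the gap ratio at matched depth, the difference from other sites (−0.352 points) reached −10.2 points without strata, turned to 0.0655 points at 200 or more reads and to 0.0782 points with medians, and excluded 0 in comparisons chosen after seeing the data, at −1.33 points against other CΨC sites in deciles of depth and −0.445 points without the member of highest fraction. The other 6 alternatives kept its sign and an interval that includes 0. For the Ψ fraction, 10 alternatives kept a negative difference whose interval excludes 0, and medians gave −2.75 points. Members numbered 96 at a fraction of at least 20%, with a median of 259 reads. Flanking bases differed in 11 combinations against all other sites, and in 4 of the 5 against other CΨC sites with 1 site per identical window. The share of members under 20% was 70.6% at 200 or more reads and 97.9% by the uncalibrated gap ratio, and that over 50% was 0.508% and 0%. Members with a copy were 17.9% at 0 mismatches and 46.0% at up to 5, and 26 members had a neighbour within 1000 nt. The cause of these changes was not tested. Low levels at shallow depth are not in the list. The lowest listed gap ratio at 51 to 200 reads was 8.42% in members and 6.57% in all other sites. Intervals at such depths are also several points wide, as for the member at 8.42% (5.25 to 13.2%), so nearby levels cannot be told apart there.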

Other observations

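Some positions near members had further listed sites. Upstream of the member at chr17:3125213 (47 of 725 reads gapped, 6.48%), sites in the TTΨGC context were listed 379 and 151 nt away, with gap ratios of 6.89% (929 reads) and 3.77% (1353 reads), and an ACΨCT site was listed 37 nt away with 5.68% (1022 reads). Downstream of the members at chr10:47970080 and chr10:47970408, an ATΨGT site with 330 gapped reads of 7319 (4.51%) was listed 556 and 228 nt away. Near chr20:38056268, a GTΨGT site 63 nt away had 190 gapped reads of 8438 (2.25%), the lowest gap ratio in the list, beside 4.34% at the member.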
